A study of Danio rerio with 16 samples.

Results

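The genes described here are mitosis genes of the zebrafish, 48 names listed for their known roles in cell division. Of these names, 42 matched a gene by symbol among the 32105 genes counted. The test across the genome kept 21372 genes, among them 41 of the 42. The remaining gene, birc5b, a member of the survivin family, had 0 to 3 reads in each library and 20 reads in all, and was not tested. Another 6 names matched no gene by symbol and are not analysed here under those names (birc5a, incenp, kif4, prc1a, prc1b and ube2c). The counts also hold 4 genes under the related symbols BIRC5, KIF4A and PRC1 (given for 2 genes). These 4 were kept apart from the 41.

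RNA came from whole zebrafish larvae at 5 days of age that had been exposed to PCB153 from 4 to 120 hours after fertilisation. PCB153 is a persistent polychlorinated biphenyl, a class of industrial chemical that accumulates in animal tissue. There were 4 groups of 4 libraries each, namely 0.1% DMSO, the solvent control, and PCB153 at 0.1 µM, at 1 µM and at 10 µM. The labels record the same age and exposure window for all larvae, and a DMSO percentage for the control group only. The labels give neither the strain nor the number of larvae in a library. They also do not say whether the 4 libraries of a group are separate clutches, so the p-values below measure the spread between these libraries, which may be partly technical. The design asks whether each dose differs from the solvent and whether doses differ from each other.

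Entry into mitosis is driven by the kinase Cdk1 bound to A-type and B-type cyclins, with Polo and Aurora kinases acting beside it. Condensins and topoisomerase II then compact and untangle the chromosomes, kinesins and their partners build the spindle, and the checkpoint holds the cell until every kinetochore is attached. Destruction of securin frees separase, sister chromatids part, and the cell is cut apart by cytokinesis. In vertebrate cells many of these transcripts accumulate late in the cell cycle, and in a larva of this age they are known from tissues that still grow, such as the retinal margin, the brain, the gut and the skin.

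Mitosis genes fell at the higher doses. No member passed the test at 0.1 µM against DMSO, where 1.14% of all tested genes fell and 2.3% rose. At 1 µM against DMSO, 12 of the 41 tested members fell (29.3%), beside 5.27% of all tested genes, and none rose, beside 7.13%. At 10 µM against DMSO, 36 of the 41 fell (87.8%), beside 8.45% of all tested genes, and none rose, beside 9.9%. A gene is said to have risen or fallen where its Benjamini-Hochberg adjusted p in edgeR's quasi-likelihood test was under 0.05. The rate over all tested genes is the background for each count from the main fit, of all 16 libraries by group. Rates over all tested genes in the alternative fits below are not given.

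The sizes were moderate and similar between members. The median log2 fold change over the 41 genes was -0.02 at 0.1 µM, -0.50 at 1 µM and -0.64 at 10 µM, each against DMSO, while the median over all tested genes lay within 0.01 of 0 in each. At 0.1 µM 24 log2 fold changes were negative and 17 positive, from -0.29 to 0.26. All 41 were negative at 1 µM, from -0.69 to -0.08, and all 41 were negative at 10 µM, from -1.02 to -0.31. All 3 comparisons use the same DMSO libraries. In whole larvae, fewer dividing cells and less of each transcript per cell cannot be told apart.

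**Figure D1:**
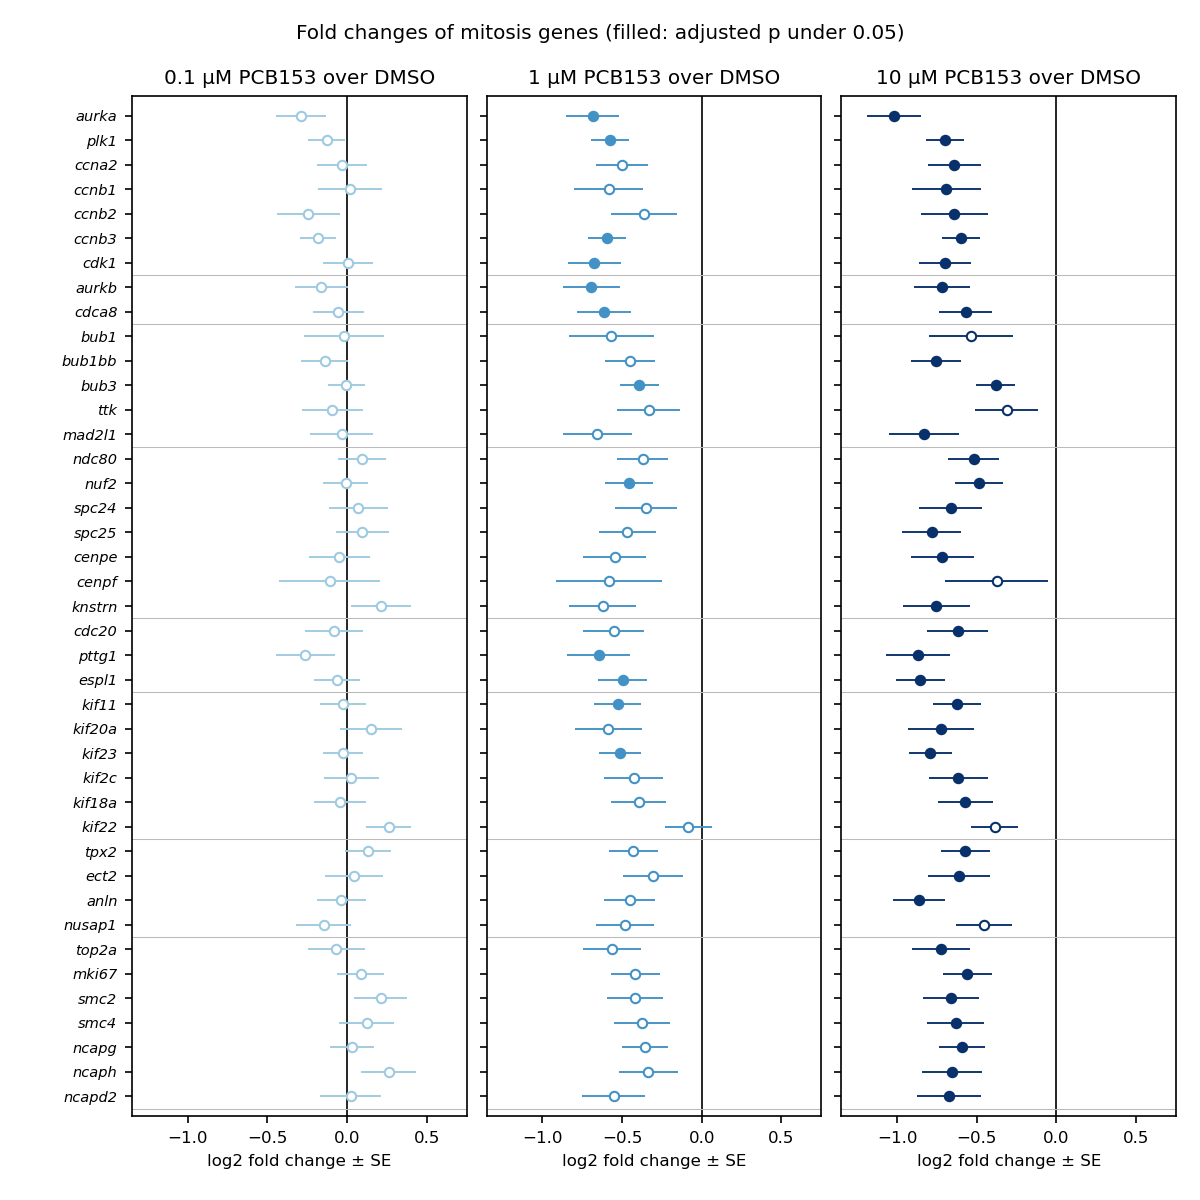
Log2 fold changes with standard errors for the 41 tested mitosis genes at 0.1, 1 and 10 µM PCB153 over DMSO, ordered by role and divided by grey lines; filled points have an adjusted p under 0.05. No point is filled at 0.1 µM, 12 are filled at 1 µM and 36 at 10 µM, all to the left of 0.

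Levels are counts per 1000000 (CPM) on library sizes scaled by the trimmed mean of M-values, and are comparable between libraries for a gene but not between genes. Summed over the 41 genes, the level was 960, 881, 872 and 897 CPM in the DMSO libraries, 789.8, 1234, 856 and 757 CPM at 0.1 µM, 576, 729, 645 and 629 CPM at 1 µM and 509, 456, 742 and 626 CPM at 10 µM. Every library at 1 µM and at 10 µM lay below every DMSO library. At 0.1 µM, 3 libraries lay below all of DMSO and replicate 2 lay above all of it. All 4 libraries at 0.1 µM lay below all 4 DMSO libraries for none of the 41 genes, beside 4.96% of all tested genes. This held for 30 genes at 1 µM (73.2%), beside 9.47%, and for 33 genes at 10 µM (80.5%), beside 11.7%.

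**Figure D2:**
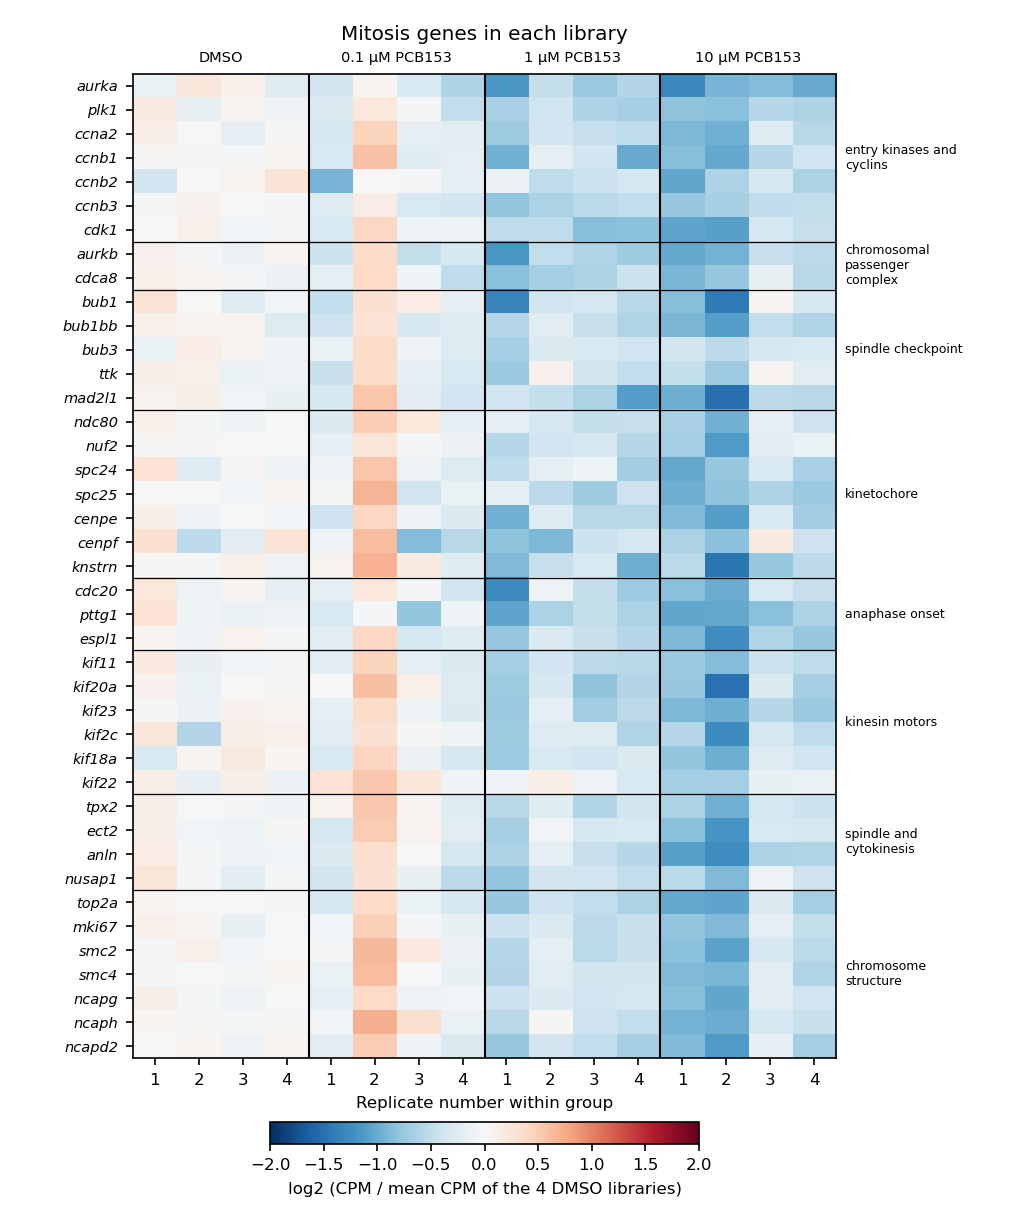
Level of each of the 41 tested mitosis genes (rows, by role) in each of the 16 libraries (columns, by group and replicate number), as log2 of CPM over the mean of the 4 DMSO libraries; blue is lower and red is higher. Replicate 2 at 0.1 µM is the column with the most red, and the columns at 1 µM and 10 µM are blue in nearly every row.

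Gene counts per library ran from 8069225 to 15531744, with the shallowest library at 1 µM (replicate 1). Of the uniquely aligned reads, those assigned to no gene were 31.4% to 35.5% in DMSO, 36.2% to 38.6% at 0.1 µM, 35.1% to 40.4% at 1 µM and 31.7% to 33.3% at 10 µM. The 10 µM range lay inside that of DMSO, the 1 µM range overlapped it narrowly, and the 0.1 µM range lay above it. With the share as a covariate, 2 members fell at 1 µM and 30 at 10 µM against DMSO. The rate over all tested genes in that fit is not given. The median log2 fold change in that fit was -0.52 at 1 µM and -0.63 at 10 µM, with all 41 values negative at both doses. Because the share at 1 µM and in DMSO overlapped only narrowly, that fit cannot well tell the share from the dose there. Why calls were lost at 1 µM was not tested. Counts marked as not uniquely aligned were a second measure, taken as a share of all counts, with those that name no gene. They were 26.9% to 33.5% in DMSO, 28.1% to 57.7% at 0.1 µM, 31.3% to 40.7% at 1 µM and 36.6% to 41.5% at 10 µM. For this second share the 10 µM range lay above that of DMSO. No fit held it as a covariate, and its part in the fall was not tested. Reads per gene and library ran from 10 (pttg1) to 2471 (mki67).

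The kinases and cyclins that start mitosis all fell at 10 µM (7 of 7), and 4 of the 7 fell at 1 µM. The cyclin-dependent kinase cdk1, the kinase that triggers mitotic entry, stood at 17.6, 18.9, 17.001 and 17.2 CPM in the DMSO libraries, 14.4, 23.5, 16.6 and 16.4 CPM at 0.1 µM, 12.4, 12.5, 9.79 and 10.04 CPM at 1 µM and 8.51, 8.38, 13.9 and 12.9 CPM at 10 µM. All libraries at 1 µM and 10 µM lay below all DMSO libraries, and the groups at 1 µM and 10 µM overlapped. The log2 fold change of cdk1 was 0.01 ± 0.15 at 0.1 µM (SE; edgeR adjusted p = 0.992), -0.67 ± 0.17 at 1 µM (adjusted p = 0.0127) and -0.70 ± 0.16 at 10 µM (adjusted p = 0.0069). On the linear scale cdk1 fell by 38.5% at 10 µM and by 37.3% at 1 µM.

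Cyclin A2, encoded by ccna2 and needed for late replication and early mitosis, had 22.1, 20.1, 18.1 and 20.6 CPM in the DMSO libraries, 16.2, 27.4, 18.1 and 17.3 CPM at 0.1 µM, 12.3, 15.5, 14.7 and 14.2 CPM at 1 µM and 10.9, 10.4, 16.9 and 13.8 CPM at 10 µM. Both higher doses lay below DMSO without overlap. Only the 10 µM difference passed the test, with a log2 fold change of -0.64 ± 0.16 (adjusted p = 0.0128), against -0.50 ± 0.16 at 1 µM (adjusted p = 0.0574). The B-type cyclin ccnb1 had 15.4, 14.7, 14.7 and 15.6 CPM in the DMSO libraries, 12.2, 22.6, 12.8 and 13.4 CPM at 0.1 µM, 7.73, 13.2, 11.6 and 7.50 CPM at 1 µM and 8.37, 7.44, 10.2 and 11.4 CPM at 10 µM. Its libraries at 1 µM spread more widely than in DMSO, and again none at either higher dose reached the lowest DMSO library. It fell at 10 µM (-0.69 ± 0.22, adjusted p = 0.0373) and had -0.59 ± 0.22 at 1 µM (adjusted p = 0.0926). The call of ccnb1 at 10 µM ended without any 1 of the DMSO libraries and without replicate 1, 2 or 3 at 10 µM (adjusted p 0.0537 to 0.109).

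Cyclin B3 (ccnb3), which supports anaphase, had the smallest SE of the cyclins. It stood at 8.61, 9.29, 8.73 and 8.52 CPM in the DMSO libraries, 7.33, 9.79, 7.12 and 6.72 CPM at 0.1 µM, 5.07, 5.64, 6.03 and 6.26 CPM at 1 µM and 5.22, 5.56, 6.20 and 6.28 CPM at 10 µM. The 1 µM and 10 µM libraries lay below all DMSO libraries and below all 0.1 µM libraries. Its log2 fold change was -0.60 ± 0.12 at 10 µM (adjusted p = 0.00128) and -0.60 ± 0.12 at 1 µM (adjusted p = 0.00202). The lowly counted ccnb2, with 1.34 to 2.20 CPM at 10 µM against 2.10 to 3.27 CPM in DMSO, overlapped between these groups and fell by 0.64 on the log2 scale (adjusted p = 0.0361). That call ended when any 1 of DMSO replicates 2, 3 and 4 or 10 µM replicates 1, 2 and 4 was left out (adjusted p 0.0661 to 0.131).

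Polo-like kinase 1 (plk1), which acts on centrosomes, kinetochores and the cleavage furrow, had 29.5, 23.4, 27.002 and 24.1 CPM in the DMSO libraries, 21.2, 29.96, 25.3 and 18.5 CPM at 0.1 µM, 16.6, 19.7, 16.99 and 16.4 CPM at 1 µM and 14.9, 14.6, 17.5 and 16.9 CPM at 10 µM. All 8 libraries at the higher doses lay below all DMSO libraries. Its log2 fold change was -0.70 ± 0.12 at 10 µM (adjusted p = 0.00046) and -0.58 ± 0.12 at 1 µM (adjusted p = 0.00345). Aurora kinase A (aurka), which matures centrosomes and helps to form spindle poles, had 4.92, 6.29, 5.73 and 4.55 CPM in the DMSO libraries, 4.16, 5.56, 4.36 and 3.49 CPM at 0.1 µM, 2.41, 3.87, 3.21 and 3.58 CPM at 1 µM and 2.21, 2.82, 2.94 and 2.68 CPM at 10 µM. Its 10 µM libraries were the most even of the 4 groups and lay below all DMSO and all 0.1 µM libraries. The fold change of aurka at 10 µM was the most negative of the 41, at -1.02 ± 0.17 (adjusted p = 0.000224), where the level fell by 50.6%, and at 1 µM it was -0.68 ± 0.17 (adjusted p = 0.00808).

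The chromosomal passenger complex, which corrects faulty attachments and guides cytokinesis, is represented by its kinase and the subunit borealin, and both fell at 1 µM and at 10 µM. Aurora kinase B (aurkb) had 11.1, 10.3, 9.67 and 10.9 CPM in the DMSO libraries, 7.79, 13.6, 7.58 and 8.40 CPM at 0.1 µM, 4.69, 7.49, 6.89 and 6.45 CPM at 1 µM and 5.16, 5.47, 7.66 and 7.28 CPM at 10 µM. No library at either higher dose reached the lowest DMSO library, and 3 of the 4 libraries at 0.1 µM also lay below it. In log2 terms the change was -0.16 ± 0.17 at 0.1 µM (adjusted p = 0.682), -0.69 ± 0.18 at 1 µM (adjusted p = 0.0143) and -0.72 ± 0.18 at 10 µM (adjusted p = 0.00775). Borealin (cdca8) had 8.68, 8.40, 7.87 and 7.50 CPM in the DMSO libraries, 7.18, 10.7, 7.66 and 5.69 CPM at 0.1 µM, 4.56, 5.08, 5.25 and 5.996 CPM at 1 µM and 4.29, 4.79, 7.34 and 5.52 CPM at 10 µM. It fell by 0.57 at 10 µM and by 0.61 at 1 µM on the log2 scale, without overlap with DMSO (adjusted p = 0.0214 and 0.0209). These cdca8 calls ended without DMSO replicate 1 or 2 at either dose, without 10 µM replicate 1 or 2, and without 1 µM replicate 1, 2 or 3 (adjusted p 0.0504 to 0.0882).

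The gene listed as BIRC5, survivin, another protein of that complex, was not counted as a member. It had 5.07, 4.24, 4.47 and 3.72 CPM in the DMSO libraries, 4.16, 4.89, 3.98 and 2.97 CPM at 0.1 µM, 2.28, 2.58, 2.19 and 2.15 CPM at 1 µM and 1.94, 1.79, 3.83 and 2.84 CPM at 10 µM. All treated libraries at 1 µM lay below all DMSO libraries, and at 10 µM replicate 3 lay within the DMSO range. Its log2 fold change was -0.75 ± 0.20 at 10 µM (adjusted p = 0.0109) and -0.92 ± 0.21 at 1 µM (adjusted p = 0.00434). Without 10 µM replicate 1 the 10 µM call ended (adjusted p = 0.0536), and with the share of reads assigned to no gene as a covariate the 1 µM call ended with a log2 fold change of -0.98 ± 0.29 (adjusted p = 0.0526).

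**Figure D3:**
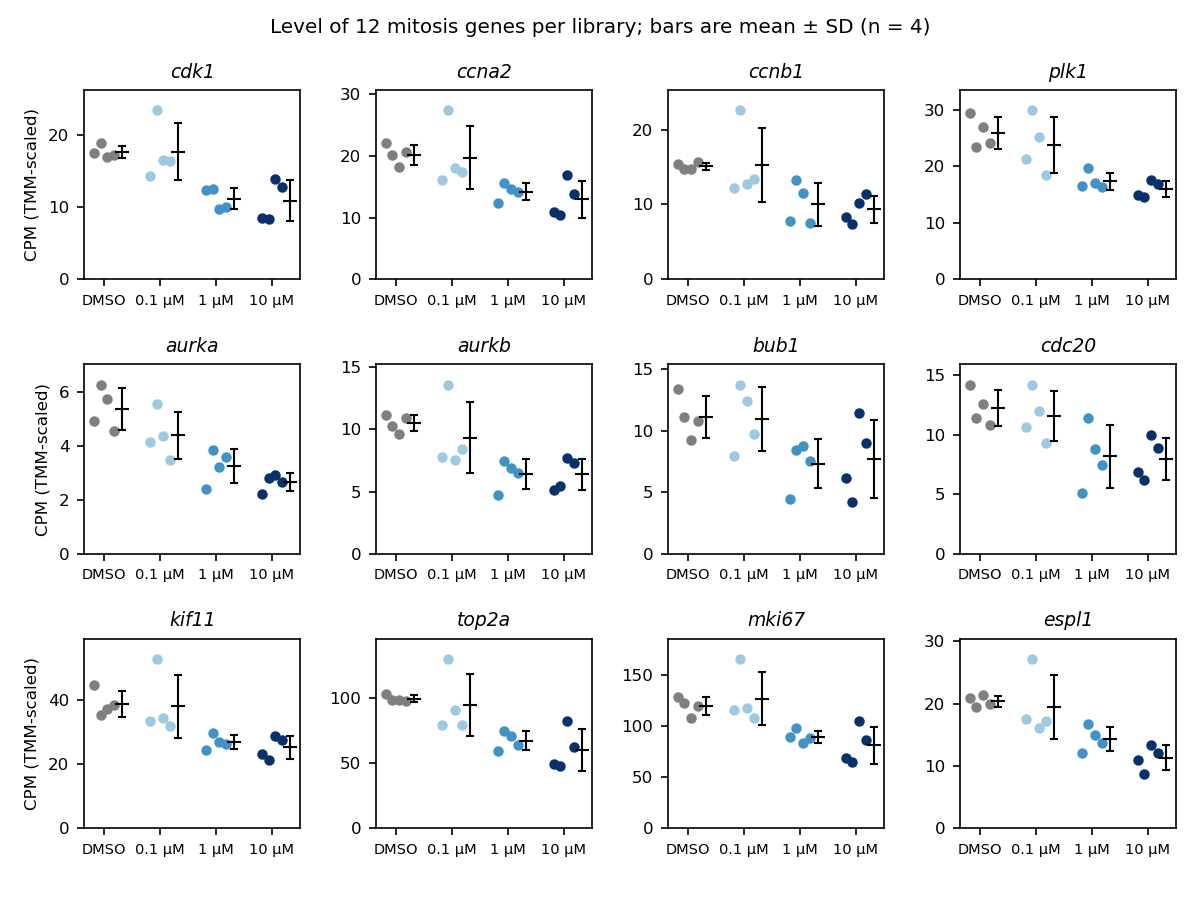
Level in CPM of 12 mitosis genes in each library (points) for DMSO and 0.1, 1 and 10 µM PCB153, with the mean and SD of the 4 libraries beside them; every axis starts at 0. The highest point at 0.1 µM in each panel is replicate 2, and for 10 of the 12 genes, bub1 and cdc20 excepted, all points at 1 µM and at 10 µM lie below all DMSO points.

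Genes of the spindle checkpoint, which delays anaphase until all kinetochores are attached, were the least uniform group, with 3 of 5 lower at 10 µM and 1 of 5 at 1 µM. The checkpoint kinase bub1 had 13.4, 11.1, 9.27 and 10.8 CPM in the DMSO libraries, 7.94, 13.7, 12.4 and 9.76 CPM at 0.1 µM, 4.44, 8.46, 8.77 and 7.56 CPM at 1 µM and 6.16, 4.19, 11.4 and 8.97 CPM at 10 µM. Replicate 3 at 10 µM lay inside the DMSO range and replicate 2 was the lowest of the 16 libraries. The log2 fold change of bub1 was -0.53 ± 0.26 at 10 µM (adjusted p = 0.185) and -0.57 ± 0.27 at 1 µM (adjusted p = 0.192), with the widest SE of the 41 at 10 µM after cenpf. Its relative bub1bb, the zebrafish BubR1, had 7.89, 7.58, 7.73 and 6.15 CPM in the DMSO libraries, 5.52, 8.92, 5.89 and 6.14 CPM at 0.1 µM, 4.94, 6.28, 5.32 and 4.82 CPM at 1 µM and 3.88, 3.42, 5.22 and 4.83 CPM at 10 µM. It fell by 0.76 at 10 µM without overlap (adjusted p = 0.002) and had -0.45 ± 0.16 at 1 µM, where replicate 2 lay within the DMSO range (adjusted p = 0.0607).

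The checkpoint protein mad2l1, which with BubR1 inhibits Cdc20, had 7.89, 8.13, 7.27 and 6.79 CPM in the DMSO libraries, 6.05, 10.99, 6.43 and 5.75 CPM at 0.1 µM, 5.70, 5.40, 4.85 and 3.52 CPM at 1 µM and 3.82, 2.65, 5.22 and 5.13 CPM at 10 µM. Both higher doses lay below DMSO and below 0.1 µM without overlap. The fitted change on the log2 scale was -0.83 ± 0.22 at 10 µM (adjusted p = 0.0131) and -0.65 ± 0.22 at 1 µM (adjusted p = 0.0577). The adaptor bub3 ranged from 7.78 to 9.12 CPM at 10 µM and from 7.10 to 9.18 CPM at 1 µM, against 10.2 to 12.4 CPM in DMSO. It fell by 0.38 at 10 µM (adjusted p = 0.0319) and by 0.39 at 1 µM (adjusted p = 0.0386), among the smallest changes that passed. The bub3 calls ended when any 1 of DMSO replicates 2 and 3 or 10 µM replicates 1 and 2 was left out (at 10 µM, adjusted p 0.0654 to 0.101) and when any 1 of DMSO replicates 2, 3 and 4 or 1 µM replicates 1, 3 and 4 was left out (at 1 µM, 0.0516 to 0.118). The kinase ttk, which starts the checkpoint signal, ranged from 9.57 to 16.5 CPM at 10 µM, against 14.4 to 17.1 CPM in DMSO, and had -0.31 ± 0.20 (adjusted p = 0.3).

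At the kinetochore, which links chromosomes to spindle microtubules, 6 of 7 genes fell at 10 µM and 1 of 7 at 1 µM. All 4 genes of the NDC80 complex, the main microtubule coupler, fell at 10 µM. Its subunit ndc80 had 14.2, 13.05, 12.4 and 13.3 CPM in the DMSO libraries, 10.9, 18.7, 15.3 and 11.5 CPM at 0.1 µM, 11.7, 10.5, 9.55 and 9.65 CPM at 1 µM and 8.44, 6.84, 11.7 and 9.89 CPM at 10 µM. The higher doses lay below DMSO without overlap, and ndc80 fell by 0.52 at 10 µM (adjusted p = 0.0302) and had -0.37 ± 0.16 at 1 µM (adjusted p = 0.146). Its partner nuf2 had 8.97, 8.68, 8.73 and 8.91 CPM in the DMSO libraries, 7.86, 10.5, 8.57 and 8.14 CPM at 0.1 µM, 5.96, 6.77, 6.97 and 5.93 CPM at 1 µM and 5.49, 4.02, 7.58 and 8.05 CPM at 10 µM. The DMSO libraries differed little, both higher doses lay below them, and the log2 fold change was -0.49 ± 0.15 at 10 µM (adjusted p = 0.0258) and -0.46 ± 0.15 at 1 µM (adjusted p = 0.0488). The 1 µM call of nuf2 was close to the threshold and ended in 10 of the 16 fits without 1 library, on every DMSO and 1 µM library, 0.1 µM replicate 3 and 10 µM replicate 1 (adjusted p 0.0528 to 0.131).

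The subunit spc24 had 5.28, 3.62, 4.40 and 4.04 CPM in the DMSO libraries, 4.08, 6.37, 4.06 and 3.62 CPM at 0.1 µM, 3.04, 3.79, 4.07 and 2.67 CPM at 1 µM and 2.14, 2.56, 3.51 and 2.76 CPM at 10 µM. At 10 µM all libraries lay below DMSO, at 1 µM replicates 2 and 3 lay within the DMSO range. Its log2 fold change was -0.66 ± 0.20 at 10 µM (adjusted p = 0.0238) and -0.35 ± 0.20 at 1 µM (adjusted p = 0.27). The subunit spc25 had 5.64, 5.67, 5.47 and 5.83 CPM in the DMSO libraries, 5.52, 9.05, 4.29 and 5.17 CPM at 0.1 µM, 4.94, 3.95, 3.45 and 4.24 CPM at 1 µM and 2.88, 3.25, 3.67 and 3.37 CPM at 10 µM. Its DMSO libraries were nearly equal, and all libraries at the higher doses lay below them. It fell by 0.78 at 10 µM (adjusted p = 0.00495), and at 1 µM had -0.47 ± 0.18 (adjusted p = 0.0964).

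The kinesin cenpe, which carries chromosomes to the spindle equator, had 59.6, 52.3, 55.1 and 53.2 CPM in the DMSO libraries, 41.4, 73.7, 52.2 and 45.2 CPM at 0.1 µM, 28.4, 46.1, 37.5 and 37.4 CPM at 1 µM and 30.01, 25.6, 44.4 and 33.9 CPM at 10 µM. Both higher doses lay below DMSO without overlap, and cenpe fell by 0.72 at 10 µM (adjusted p = 0.0252). The adaptor knstrn, known in mammals as a spindle and kinetochore protein, had 4.05, 3.89, 4.27 and 3.72 CPM in the DMSO libraries, 4.16, 6.44, 4.52 and 3.36 CPM at 0.1 µM, 2.15, 2.90, 3.21 and 2.02 CPM at 1 µM and 2.75, 1.45, 2.36 and 2.76 CPM at 10 µM. Both higher doses lay below DMSO and 0.1 µM without overlap, with a log2 fold change of -0.75 ± 0.21 at 10 µM (adjusted p = 0.0153) and -0.62 ± 0.21 at 1 µM (adjusted p = 0.056). The large protein gene cenpf varied most between the DMSO libraries, which ran from 23.8 to 42.1 CPM. At 10 µM it ran from 19.2 to 38.5 CPM, with -0.38 ± 0.32 (adjusted p = 0.474). Without 10 µM replicate 1 or 2 the calls of ndc80, nuf2, spc24 and cenpe at 10 µM ended (adjusted p 0.0631 to 0.105), and the call of knstrn ended without replicate 2 (0.0662). Without single DMSO libraries the calls ended for ndc80 (replicate 1, 2 or 4), nuf2 (1, 3 or 4), spc24 (1 or 3) and cenpe (1 or 3), and for cenpe also without 10 µM replicate 4 (0.0509 to 0.0801).

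The 3 tested genes of anaphase onset fell at 10 µM, and pttg1 and espl1 also at 1 µM. The activator cdc20, which directs the anaphase-promoting complex to its targets, had 14.2, 11.4, 12.6 and 10.8 CPM in the DMSO libraries, 10.7, 14.2, 12.02 and 9.31 CPM at 0.1 µM, 5.07, 11.4, 8.77 and 7.43 CPM at 1 µM and 6.90, 6.15, 9.95 and 8.89 CPM at 10 µM. Replicate 1 at 1 µM was the lowest library and replicate 2 at 1 µM lay within the DMSO range. It fell by 0.62 at 10 µM without overlap with DMSO (adjusted p = 0.0328) and had -0.55 ± 0.19 at 1 µM (adjusted p = 0.0713). The cdc20 call ended when any 1 of DMSO replicates 1, 2 and 3 or 10 µM replicates 1 and 2 was left out (adjusted p 0.0519 to 0.104).

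Securin (pttg1), the inhibitor of separase, had 3.18, 2.46, 2.40 and 2.43 CPM in the DMSO libraries, 2.12, 2.55, 1.53 and 2.46 CPM at 0.1 µM, 1.27, 1.69, 1.88 and 1.69 CPM at 1 µM and 1.27, 1.28, 1.47 and 1.69 CPM at 10 µM. These are low levels, from 10 to 44 reads per library, yet no library at the higher doses reached the lowest DMSO library. In log2 terms the change was -0.87 ± 0.20 at 10 µM (adjusted p = 0.00396) and -0.65 ± 0.20 at 1 µM (adjusted p = 0.0332). Separase (espl1), the protease that cuts cohesin, had 20.9, 19.4, 21.3 and 19.9 CPM in the DMSO libraries, 17.5, 27.1, 16.000 and 17.2 CPM at 0.1 µM, 12.04, 16.7, 14.96 and 13.7 CPM at 1 µM and 10.98, 8.63, 13.4 and 12.03 CPM at 10 µM. It showed no overlap with DMSO at either higher dose and no overlap with 0.1 µM at 10 µM. The fitted change on the log2 scale was -0.85 ± 0.15 at 10 µM (adjusted p = 0.000979) and -0.50 ± 0.15 at 1 µM (adjusted p = 0.0401). At 1 µM the call of pttg1 ended when any 1 of DMSO replicates 1 and 2 or 1 µM replicates 1, 2 and 4 was left out (0.0539 to 0.106), and that of espl1 without any DMSO library, 1 µM replicate 1, 3 or 4, or 10 µM replicate 1 or 4 (0.0509 to 0.106).

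Of the 6 kinesin motors, 5 fell at 10 µM and 2, kif11 and kif23, at 1 µM. The motor kif11, which pushes spindle poles apart, had 44.7, 35.2, 37.3 and 38.3 CPM in the DMSO libraries, 33.4, 52.8, 34.5 and 31.8 CPM at 0.1 µM, 24.3, 29.7, 27.01 and 26.3 CPM at 1 µM and 23.2, 21.4, 28.8 and 27.4 CPM at 10 µM. Neither higher dose overlapped DMSO or 0.1 µM, with -0.63 ± 0.15 at 10 µM (adjusted p = 0.00893) and -0.53 ± 0.15 at 1 µM (adjusted p = 0.0312). The 1 µM call of kif11 ended when any 1 of DMSO replicates 1, 3 and 4 or 1 µM replicates 1, 3 and 4 was left out (adjusted p 0.0545 to 0.0863). The motor kif23, part of the centralspindlin complex of the midzone, had 19.6, 18.3, 21.3 and 20.6 CPM in the DMSO libraries, 17.6, 25.6, 18.8 and 16.5 CPM at 0.1 µM, 11.9, 17.4, 12.4 and 13.8 CPM at 1 µM and 10.7, 10.2, 13.4 and 11.95 CPM at 10 µM. The 4 libraries at 10 µM lay below all DMSO and all 0.1 µM libraries. It fell by 0.79 at 10 µM (adjusted p = 0.000373) and by 0.51 at 1 µM (adjusted p = 0.0142; without 1 µM replicate 3, adjusted p = 0.0526).

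The midzone motor kif20a had 17.7, 15.4, 16.9 and 17.04 CPM in the DMSO libraries, 16.9, 25.5, 17.9 and 14.03 CPM at 0.1 µM, 10.3, 13.4, 9.63 and 11.2 CPM at 1 µM and 9.91, 5.98, 13.9 and 10.6 CPM at 10 µM. Neither higher dose overlapped DMSO or 0.1 µM, and kif20a fell by 0.73 at 10 µM (adjusted p = 0.0255) and had -0.59 ± 0.21 at 1 µM (adjusted p = 0.0814). The microtubule depolymerase kif2c had 11.4, 6.49, 10.7 and 10.4 CPM in the DMSO libraries, 8.47, 11.999, 9.95 and 9.24 CPM at 0.1 µM, 5.96, 8.14, 8.22 and 6.45 CPM at 1 µM and 6.56, 4.103, 7.75 and 6.90 CPM at 10 µM. Its lowest DMSO library, replicate 2, lay below 3 of the 10 µM libraries. The log2 fold change of kif2c was -0.62 ± 0.19 at 10 µM (adjusted p = 0.0264). The motor kif18a, which shortens kinetochore fibres, had 6.95, 8.88, 9.73 and 8.78 CPM in the DMSO libraries, 6.96, 11.5, 7.89 and 6.85 CPM at 0.1 µM, 5.20, 6.93, 6.58 and 7.04 CPM at 1 µM and 5.02, 4.36, 7.18 and 6.59 CPM at 10 µM. The groups overlapped through DMSO replicate 1 at both higher doses, and kif18a fell by 0.57 at 10 µM (adjusted p = 0.0257). Without 10 µM replicate 1 the calls of kif20a, kif2c and kif18a ended (adjusted p 0.0567 to 0.0872). They also ended without 10 µM replicate 2 for kif2c and kif18a, and without single DMSO libraries for all 3 genes (replicate 1, 3 or 4 for kif20a and kif2c, replicate 2, 3 or 4 for kif18a), with adjusted p from 0.0547 to 0.0929.

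The chromokinesin kif22, which pushes chromosome arms away from the poles, passed in no comparison with DMSO. It had 21.7, 17.7, 21.4 and 18.3 CPM in the DMSO libraries, 24.1, 28.8, 23.04 and 18.8 CPM at 0.1 µM, 18.6, 21.8, 18.5 and 15.97 CPM at 1 µM and 12.4, 12.3, 17.8 and 18.01 CPM at 10 µM. At 0.1 µM 3 of 4 libraries lay above all DMSO libraries, and the groups at 1 µM and 10 µM overlapped DMSO. In log2 terms the change was 0.26 ± 0.14 at 0.1 µM (adjusted p = 0.366), -0.08 ± 0.15 at 1 µM (adjusted p = 0.77) and -0.39 ± 0.15 at 10 µM (adjusted p = 0.0757). Only the comparison of 10 µM with 0.1 µM passed, where kif22 fell by 0.65 (adjusted p = 0.00479). The gene listed as KIF4A, a chromokinesin outside the 41, had 29.2, 28.8, 26.1 and 27.2 CPM in the DMSO libraries, 25.03, 38.6, 26.1 and 23.5 CPM at 0.1 µM, 20.1, 21.3, 19.3 and 19.4 CPM at 1 µM and 16.8, 13.2, 20.5 and 17.6 CPM at 10 µM. Its higher doses did not overlap DMSO, with -0.71 ± 0.14 at 10 µM (adjusted p = 0.00202) and -0.47 ± 0.14 at 1 µM (adjusted p = 0.0332). The 1 µM call ended without any 1 DMSO library and without 1 µM replicate 1, 3 or 4 (adjusted p 0.0509 to 0.0844), and with the covariate (-0.48 ± 0.20, adjusted p = 0.21).

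Among genes of the spindle and of cytokinesis, 3 of 4 fell at 10 µM and none at 1 µM, where 3 of the 4 had an adjusted p between 0.0805 and 0.0952. The scaffold anln (anillin), which organises the contractile ring, had 37.9, 33.5, 32.1 and 32.9 CPM in the DMSO libraries, 28.3, 43.2, 34.3 and 26.9 CPM at 0.1 µM, 21.9, 29.6, 24.7 and 23.01 CPM at 1 µM and 16.1, 14.4, 21.9 and 22.4 CPM at 10 µM. Both higher doses lay below DMSO without overlap. The fitted change on the log2 scale was -0.86 ± 0.16 at 10 µM (adjusted p = 0.00207), a fall by 45.04%, and -0.45 ± 0.16 at 1 µM (adjusted p = 0.0805). The spindle assembly factor tpx2, an activator of Aurora A, had 31.8, 29.1, 28.5 and 27.7 CPM in the DMSO libraries, 30.7, 42.7, 30.4 and 24.5 CPM at 0.1 µM, 19.9, 24.7, 19.3 and 22.7 CPM at 1 µM and 18.8, 15.04, 23.1 and 21.8 CPM at 10 µM. It fell by 0.57 at 10 µM without overlap (adjusted p = 0.0167; without 10 µM replicate 1, adjusted p = 0.0507).

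The exchange factor ect2, which activates RhoA at the cleavage furrow, had 11.1, 9.84, 9.67 and 10.4 CPM in the DMSO libraries, 8.02, 14.6, 10.8 and 8.73 CPM at 0.1 µM, 6.46, 9.91, 8.06 and 8.34 CPM at 1 µM and 5.83, 4.53, 8.32 and 8.12 CPM at 10 µM. At 1 µM replicate 2 lay within the DMSO range, and at 10 µM no library did. It fell by 0.61 at 10 µM (adjusted p = 0.0342), a call that ended without any 1 DMSO library and without 10 µM replicate 1 or 2 (adjusted p 0.0571 to 0.104). The microtubule bundler nusap1 ran from 11.3 to 19.6 CPM at 10 µM, against 18.1 to 24.6 CPM in DMSO, with -0.45 ± 0.18 (adjusted p = 0.0907). Outside the 41, both genes listed as PRC1, a bundler of midzone microtubules, fell at 10 µM, ENSDARG00000005993 by 0.96 (adjusted p = 0.0162) and ENSDARG00000100918 by 0.78 (adjusted p = 0.02). The call of ENSDARG00000100918 ended when any 1 of DMSO replicates 1 and 3 or 10 µM replicates 1 and 2 was left out (adjusted p 0.0501 to 0.0662). Which of them is prc1a and which prc1b was not inferred.

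All 7 genes of chromosome structure fell at 10 µM and none at 1 µM. Topoisomerase II alpha (top2a), which untangles sister chromatids, had 103, 98.4, 98.5 and 97.3 CPM in the DMSO libraries, 79.2, 129.9, 90.4 and 79.6 CPM at 0.1 µM, 58.9, 74.8, 70.8 and 64.2 CPM at 1 µM and 49.03, 47.6, 82.2 and 61.9 CPM at 10 µM. The DMSO libraries lay within a narrow range, and no library at either higher dose reached it. The log2 fold change was -0.73 ± 0.18 at 10 µM (adjusted p = 0.0154) and -0.56 ± 0.18 at 1 µM (adjusted p = 0.0637). The gene mki67, which encodes the Ki-67 coat protein of mitotic chromosomes and a common marker of cycling cells, had 128, 123, 108 and 119.6 CPM in the DMSO libraries, 116, 166, 118 and 108 CPM at 0.1 µM, 88.96, 97.8, 83.6 and 87.9 CPM at 1 µM and 68.9, 64.96, 105 and 85.9 CPM at 10 µM. Replicate 3 at 10 µM came within a few CPM of the lowest DMSO library, and the groups did not overlap. It fell by 0.56 at 10 µM (adjusted p = 0.0215) and had -0.42 ± 0.15 at 1 µM (adjusted p = 0.0928). The mki67 call ended when any 1 of DMSO replicates 1 and 2 or 10 µM replicates 1 and 2 was left out (adjusted p 0.0505 to 0.0645).

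The condensin ATPases smc2 and smc4 had closely similar changes. For smc2 the levels were 36.98, 40.6, 36.8 and 37.9 in DMSO, 37.6, 59.9, 43.7 and 35.1 at 0.1 µM, 25.7, 33.7, 26.2 and 27.96 at 1 µM and 21.6, 18.04, 30.3 and 26.3 at 10 µM (CPM). For smc4 they were 41.8, 43.04, 41.8 and 44.3 in DMSO, 39.02, 65.6, 42.6 and 38.7 at 0.1 µM, 28.5, 36.8, 32.96 and 32.98 at 1 µM and 23.2, 22.6, 36.6 and 28.2 at 10 µM (CPM). Neither gene overlapped DMSO at the higher doses. They fell by 0.66 (smc2, adjusted p = 0.018) and by 0.63 (smc4, adjusted p = 0.0261) at 10 µM. The non-SMC condensin subunit ncapg had 21.9, 19.8, 18.9 and 20.4 CPM in the DMSO libraries, 17.6, 26.4, 18.9 and 19.5 CPM at 0.1 µM, 14.95, 16.8, 15.3 and 15.97 CPM at 1 µM and 11.3, 9.83, 17.3 and 15.3 CPM at 10 µM. Both higher doses again lay below DMSO, with -0.59 ± 0.15 at 10 µM (adjusted p = 0.0086) and -0.36 ± 0.14 at 1 µM (adjusted p = 0.118).

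The subunit ncaph, the kleisin of condensin I, had 12.2, 11.5, 11.7 and 12.1 CPM in the DMSO libraries, 11.4, 19.6, 14.9 and 10.9 CPM at 0.1 µM, 8.11, 12.004, 8.85 and 8.41 CPM at 1 µM and 6.16, 5.98, 9.30 and 8.66 CPM at 10 µM. At 1 µM replicate 2 lay within the DMSO range. It fell by 0.66 at 10 µM (adjusted p = 0.0223). The subunit ncapd2 had 34.2, 35.4, 32.8 and 35.2 CPM in the DMSO libraries, 29.5, 49.1, 32.8 and 28.1 CPM at 0.1 µM, 20.4, 26.6, 24.6 and 21.8 CPM at 1 µM and 18.6, 15.7, 30.7 and 21.4 CPM at 10 µM. Its DMSO libraries lay above all libraries at both higher doses. It fell by 0.67 at 10 µM (adjusted p = 0.0325) and had -0.55 ± 0.20 at 1 µM (adjusted p = 0.0901). Without 10 µM replicate 1 or 2 the calls of smc2, smc4, ncaph and ncapd2 at 10 µM ended (adjusted p 0.0515 to 0.0922). Without 10 µM replicate 4 or single DMSO libraries the calls of smc4 (DMSO 2, 3 or 4) and ncapd2 (any DMSO library) ended too, and that of ncaph without DMSO replicate 4 (0.0505 to 0.0704).

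The higher doses were also set against the lowest. At 10 µM against 0.1 µM, 35 of the 41 genes fell (85.4%), beside 10.6% of all tested genes, and none rose, beside 10.8%. The median log2 fold change was -0.64. For 24 genes (58.5%) all 4 libraries at 10 µM lay below all 4 at 0.1 µM, beside 9.49% of all tested genes. The most negative values were knstrn at -0.97 ± 0.21 (adjusted p = 0.00241) and ncaph at -0.92 ± 0.19 (adjusted p = 0.00253). Those not past the threshold were bub1, ttk, cenpf, nusap1, ccnb2 and cdc20. Without 0.1 µM replicate 2 the count was 19 and the median -0.47. It was 20 without 10 µM replicate 1 and 20 without 10 µM replicate 2. With the share of reads assigned to no gene as a covariate, the count was 0 and the median -0.60 with all 41 values negative. The rate over all tested genes in that fit is not given. The ranges of that share at 10 µM and 0.1 µM, given above, did not overlap.

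No member passed at 1 µM against 0.1 µM, beside 0.435% of all tested genes lower and 0.538% higher, although the median log2 fold change was -0.47 and all 41 values were negative. At an unadjusted p under 0.05 there were 32, and DESeq2 called 12 lower. The smallest adjusted p in edgeR was 0.0528 for knstrn, with -0.84 ± 0.21, and 0.0603 for cdk1, with -0.68 ± 0.17. Without 0.1 µM replicate 4 edgeR called 11. At 10 µM against 1 µM no member passed either, beside 3.05% of all tested genes lower and 3.11% higher. The unadjusted test gave 2 and DESeq2 gave 0. The median difference between these doses was -0.15, with 35 of 41 values negative, from -0.41 (anln, adjusted p = 0.171) to 0.21 (cenpf). The count at 1 µM against DMSO was thus smaller than at 10 µM, but the direct test did not separate the 2 doses for any member. An F-test for any difference among the 4 groups called 36 of 41, beside 25.8% of all tested genes.

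Members moved together from library to library as well as between groups. Within each group, 0.1 µM replicate 2 was the highest library for 41 of 41 genes, 10 µM replicate 3 for 33 and DMSO replicate 1 for 26, while 10 µM replicate 2 was the lowest for 33 genes and 1 µM replicate 1 for 25. After the group means were removed, log2 levels of each member were correlated with the mean of the other members over the 16 libraries. The median Pearson r was 0.85, from 0.29 for ccnb2 to 0.97 for top2a, and 39 of 41 exceeded 0.5, pttg1 and ccnb2 excepted. Of the other 21331 tested genes 11.9% exceeded 0.5, with a median near 0. The libraries share depth and larvae across all genes, so these r values describe the 16 libraries. No r was computed without 0.1 µM replicate 2, so how far that library carries these values was not tested.

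The counts depended on a few libraries. At 1 µM against DMSO the number of members that fell was 29 without 0.1 µM replicate 2, a library of neither group that enters the shared fit, and 32 when the 8 libraries of this comparison were fitted alone. It was 6 without 1 µM replicate 1, and 7 without 1 µM replicate 3, without 1 µM replicate 4 or without DMSO replicate 1. Against DMSO at 10 µM it was 17 without 10 µM replicate 1, 18 without 10 µM replicate 2 and 23 without DMSO replicate 3. In the 16 fits that leave out 1 library each, 16 of the 36 genes stayed past the threshold at 10 µM throughout, and 5 of the 12 at 1 µM. The 5 were aurka, aurkb, ccnb3, cdk1 and plk1. Of these 5, only plk1 also stayed past the threshold at 1 µM in every other alternative fit. With the share of reads assigned to no gene as a covariate, aurka, aurkb, ccnb3 and cdk1 did not pass at 1 µM (adjusted p 0.0813 to 0.169). At 0.1 µM no fit called a member, but without replicate 2 the median log2 fold change was -0.19 with 37 of 41 values negative, against -0.02 with it.

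Other genes of the cell cycle were set beside the members. Of 61 further mitotic genes, 37 fell at 10 µM against DMSO (60.7%, beside 8.45% of all tested genes) and 13 at 1 µM (21.3%, beside 5.27%). None rose, beside 9.9% and 7.13% of all tested genes, and the medians were -0.51 and -0.40. Leaving out 1 library moved these counts between 14 (without 10 µM replicate 1) and 41 at 10 µM, and between 6 (without 1 µM replicate 1) and 22 (without 0.1 µM replicate 2) at 1 µM. The ubiquitin ligase subunit ccnf (cyclin F) fell by 1.17 at 10 µM (adjusted p = 2.2e-05) and by 0.91 at 1 µM (adjusted p = 0.000441). Its levels were 3.48, 4.70, 5.54 and 4.98 CPM at 10 µM and 4.31, 6.04, 6.50 and 5.15 CPM at 1 µM, against 9.84, 11.2, 10.5 and 10.2 CPM in DMSO. The kinetochore gene mis12 fell by 0.93 at 10 µM (adjusted p = 0.000231). Of 50 DNA replication genes 24 fell at 10 µM (48%) and 7 at 1 µM (14%), with medians of -0.50 and -0.32. At 10 µM against 0.1 µM, 42 of them fell (84%), beside 10.6% of all tested genes. Leaving out 1 library moved the replication counts between 8 (without 10 µM replicate 1) and 35 (without 0.1 µM replicate 2) at 10 µM, and between 0 (without DMSO replicate 2) and 11 (without 0.1 µM replicate 2) at 1 µM. Against 0.1 µM the replication count was 26 without 10 µM replicate 2. The ranges of the share of reads assigned to no gene did not overlap between 10 µM and 0.1 µM. The replication count with that share as a covariate is not given.

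**Figure D4:**
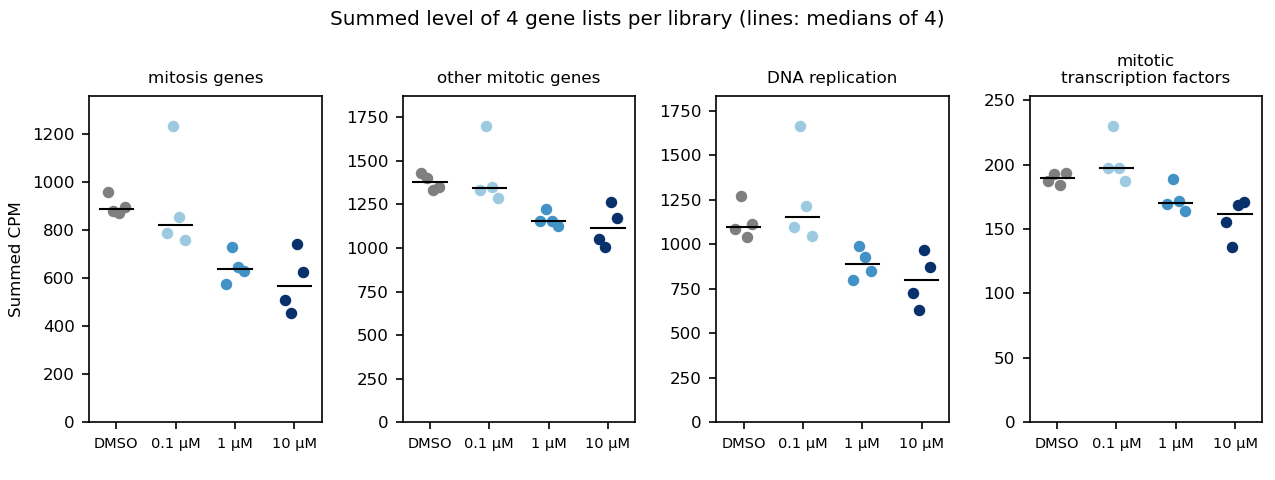
Summed CPM of the 41 mitosis genes, of 61 other mitotic genes, of 50 DNA replication genes and of 14 transcription factors linked to mitotic genes, for each library in DMSO and at 0.1, 1 and 10 µM PCB153; lines are medians of 4 and axes start at 0. In the first 3 panels replicate 2 at 0.1 µM is the highest of the 16 libraries, and the libraries at 1 µM and 10 µM lie below all DMSO libraries.

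The replication clamp pcna had 119, 140.3, 123 and 125 CPM in the DMSO libraries, 111, 181, 133 and 105 CPM at 0.1 µM, 74.5, 98.1, 93.4 and 89.5 CPM at 1 µM and 67.7, 64.7, 98.3 and 85.5 CPM at 10 µM, with no overlap between either higher dose and DMSO. It fell by 0.68 at 10 µM (adjusted p = 0.0157, without 10 µM replicate 1, 0.0506, and without replicate 2, 0.0515) and had -0.51 ± 0.17 at 1 µM (adjusted p = 0.0748). At 1 µM against DMSO pcna passed as lower in DESeq2 (adjusted p = 0.00934) and with only the 8 libraries compared (0.000262). It also did in the non-robust fit (0.0275) and without 0.1 µM replicate 2 (0.0181). The origin recognition subunit orc4 fell by 0.93 at 10 µM (adjusted p = 0.000199) and by 0.49 at 1 µM (adjusted p = 0.0338), where the call ended when any 1 of DMSO replicates 2 and 3 or 1 µM replicates 1 and 3 was left out (adjusted p 0.0851 to 0.108), and with the covariate (-0.43 ± 0.21, 0.278). Of 14 transcription factors linked to mitotic genes, 7 fell at 10 µM (50%, beside 8.45% of all tested genes) and none at 1 µM, beside 5.27%. Without 10 µM replicate 2 the count at 10 µM was 2. The factor foxm1, an activator of late cell cycle genes in mammals, had 5.64, 5.47, 5.67 and 5.51 CPM in the DMSO libraries, 4.99, 9.32, 6.89 and 5.69 CPM at 0.1 µM, 4.44, 4.99, 4.23 and 4.30 CPM at 1 µM and 2.21, 2.31, 5.14 and 3.91 CPM at 10 µM. Its 10 µM libraries were uneven, with replicates 1 and 2 lower than replicates 3 and 4, and all lay below DMSO. It fell by 0.73 at 10 µM (adjusted p = 0.0267), a call that ended without any 1 DMSO library and without 10 µM replicate 1 or 2 (adjusted p 0.0518 to 0.0982). The repressor e2f8 rose by 0.50 at 0.1 µM (adjusted p = 0.0438) and fell by 0.43 at 10 µM (adjusted p = 0.0482), both against DMSO. Both e2f8 calls were near the threshold, and most fits without 1 library ended them, 11 of 16 at 0.1 µM and 10 of 16 at 10 µM. With the covariate e2f8 had 0.39 ± 0.19 at 0.1 µM (adjusted p = 0.464) and -0.40 ± 0.15 at 10 µM (adjusted p = 0.081).

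A list of cell cycle inhibitors, cyclins and kinases of earlier phases, and clock-linked genes did not follow a single direction across the doses. Of its 23 names, 15 were tested. Of these 15, none fell and 2 rose at 0.1 µM, 4 fell and 2 rose at 1 µM, and 3 fell and none rose at 10 µM. Of all tested genes, 1.14% fell and 2.3% rose at 0.1 µM, 5.27% and 7.13% at 1 µM, and 8.45% and 9.9% at 10 µM. The 3 that fell at 10 µM were cdk2, ccne1 and ccne2, which promote entry into S phase. None of the inhibitors tested passed there in this fit, and the untested names were not examined. Leaving out any 1 DMSO or 1 µM library brought the number that fell at 1 µM to 1 or 2, and leaving out 10 µM replicate 2 brought that at 10 µM to 1. With the share of reads assigned to no gene as a covariate, none fell or rose at 0.1 µM or 1 µM. At 10 µM against 0.1 µM, 7 of the 15 fell (46.7%) and 1 rose, beside 10.6% and 10.8% of all tested genes. Leaving out 1 library moved the number that fell there between 4 (without 0.1 µM replicate 2) and 8 (without 0.1 µM replicate 4). At 10 µM, 12 log2 fold changes were negative and 3 positive, both against DMSO and against 0.1 µM. The inhibitor cdkn1a, which encodes p21, had 5.79, 8.27, 5.27 and 5.25 CPM in the DMSO libraries, 11.3, 10.9, 9.19 and 9.57 CPM at 0.1 µM, 8.36, 9.26, 9.87 and 7.89 CPM at 1 µM and 5.69, 4.53, 8.15 and 7.59 CPM at 10 µM. All libraries at 0.1 µM lay above all DMSO libraries. It rose by 0.74 at 0.1 µM (adjusted p = 0.0092) and by 0.53 at 1 µM (adjusted p = 0.0365), and had 0.08 ± 0.17 at 10 µM (adjusted p = 0.788). The 1 µM call of cdkn1a ended when any 1 of DMSO replicates 1, 3 and 4 or 1 µM replicates 1, 2 and 3 was left out (adjusted p 0.0571 to 0.11). With that covariate cdkn1a had 0.86 ± 0.22 at 0.1 µM (adjusted p = 0.0631) and 0.66 ± 0.23 at 1 µM (adjusted p = 0.104). The kinase wee1, which holds Cdk1 inactive and is clock-controlled in zebrafish, had 18.96, 18.5, 15.3 and 15.8 CPM in the DMSO libraries, 24.1, 24.6, 19.5 and 18.1 CPM at 0.1 µM, 19.8, 20.9, 18.5 and 16.6 CPM at 1 µM and 13.9, 12.99, 16.3 and 14.1 CPM at 10 µM. Against DMSO it did not pass at any dose (adjusted p = 0.086 at 0.1 µM, 0.447 at 1 µM and 0.107 at 10 µM). With only the 8 libraries compared it fell at 10 µM against DMSO (-0.26 ± 0.09, adjusted p = 0.0487). Without 0.1 µM replicate 4 it rose at 0.1 µM against DMSO (0.41 ± 0.10, adjusted p = 0.0212). Its log2 difference was -0.59 ± 0.11 at 10 µM against 0.1 µM (adjusted p = 0.000691) and -0.40 ± 0.11 at 10 µM against 1 µM (adjusted p = 0.0356). The second of these calls ended without 1 µM replicate 1, 2 or 3 or 10 µM replicate 1, 2 or 4 (adjusted p 0.0553 to 0.13). With the covariate the differences were -0.57 ± 0.16 at 10 µM against 0.1 µM (adjusted p = 0.0782) and -0.38 ± 0.17 at 10 µM against 1 µM (adjusted p = 0.51). Cyclin D1 (ccnd1), which acts at the start of the cycle, had -0.14 ± 0.07 at 10 µM and 0.04 ± 0.07 at 1 µM and passed in no comparison.

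Markers of tissues in which cells divide at this age, or whose share of the RNA could shift the values, were read beside the members. The background is the share of all tested genes. Against DMSO, 1.14% fell and 2.3% rose at 0.1 µM, 5.27% and 7.13% at 1 µM, and 8.45% and 9.9% at 10 µM. At 10 µM against 0.1 µM, 10.6% fell and 10.8% rose. Of 5 skin markers 4 fell at 10 µM and 2 at 1 µM (4 without 0.1 µM replicate 2 or without 1 µM replicate 4), and their summed level ran from 7571 to 8464 CPM at 10 µM and from 7793 to 9122 CPM at 1 µM, against 10367 to 11801 CPM in DMSO. Of 5 liver markers 3 fell at 10 µM and 4 at 1 µM (none at 1 µM without DMSO replicate 3), with 2022 to 2516 CPM at 10 µM and 2284 to 2769 CPM at 1 µM, against 2806 to 3400.0 CPM in DMSO. Of 7 tested markers of neural and retinal progenitors 1 fell at 0.1 µM, 3 fell and 1 rose at 1 µM, and 1 fell at 10 µM. Their summed level was 107 to 112 CPM in DMSO, 95.1 to 99.1 CPM at 0.1 µM, 85.1 to 89.2 CPM at 1 µM and 96.6 to 103 CPM at 10 µM. Of 6 germ cell markers 3 passed the filter and none passed the test, with 3.60 to 5.89 CPM at 10 µM against 3.73 to 6.37 CPM in DMSO. Of the tested markers of photoreceptors (5), skeletal muscle (3), lens, exocrine pancreas, blood and brain (2 each), 1 photoreceptor marker fell at 1 µM, 1 photoreceptor and 1 blood marker rose at 10 µM, and no other passed against DMSO. At 10 µM against 0.1 µM, 4 of 5 skin markers fell (1 without 10 µM replicate 2). So did 2 of 5 liver markers (1 without 0.1 µM replicate 2). In that comparison 2 of 3 skeletal muscle, 3 of 5 photoreceptor, 1 of 2 lens and 1 of 2 exocrine pancreas markers rose. No blood, brain, germ cell or progenitor marker passed in it. No marker found was at 0 in all libraries. The part of these tissues in the fall of the mitosis genes was not tested.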

How the data were processed

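Whole-larva RNA was isolated with a spin-column kit and sequenced from stranded, rRNA-depleted total RNA libraries, per the labels' protocols. Per the submitters' processing notes Trimmomatic, HTSeq, edgeR and the GRCz10 build were used. No version, aligner or gene annotation release is named in these sources. The deposited values are whole-number counts of reads per gene, not normalized, and the names of the deposited files give reverse-strand, union-mode counting. Union mode drops reads that fit overlapping genes, and reads of near-identical paralogs may be lost or split. Lines that name no gene (no feature, ambiguous, not unique, not aligned) stayed out of library sizes and tests, and the no-feature share is given beside the results. Gene symbols came from a table of zebrafish gene names, which matched 26269 of 32105 IDs, and no coordinates or sequences are reported.

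Counts were fitted with edgeR 4.0.16 in R 4.3.3 in 1 model of all 16 libraries by group. The steps were filterByExpr, TMM scaling and a robust quasi-likelihood F-test, with Benjamini-Hochberg adjustment over 21372 genes and a threshold of 0.05. The standard error is the log2 fold change over the root of F. The common biological coefficient of variation was 0.0847. Alternatives were DESeq2 1.42.0, its size factors, other filters on low counts, only the 8 libraries compared, a replicate block, the no-feature share as a covariate, a non-robust fit and leaving out each library. The scripts were tested on simulated data. No pair of libraries within a group was a duplicate, since the lowest chi-square per degree of freedom over these pairs was 3.19. Pairs of libraries from different groups were not compared in this way. Dixon's test was run on each member and group.

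The member names were listed by role and the list uses no measured value, but this group of genes and the other lists were chosen with earlier results of these data known. Values in all libraries are given for a fixed set and for up to 25 further members past the threshold in any comparison, by smallest p, and the others by range. Other genes named are a fixed set and, per list and comparison, up to 4 past the threshold by smallest p. The 4 related genes, and cdk6, ccng2, ccne1, ccne2 and cdk2 with their library values, were taken after their values were seen.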

Additional observations from a re-analysis of the deposited data

Results flagged for a closer look

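In groups of 4 libraries, 1 library stood apart for 10 of 168 member and group pairs, by Dixon's 95% criterion for the gap to the nearest other library. Chance alone puts about 1 in 20 groups past it. Of the 10, 9 were 0.1 µM replicate 2, each time above the other 3 libraries of its group. Its level was 13.6 CPM for aurkb (others 7.58 to 8.40), 27.4 CPM for ccna2 (16.2 to 18.1), 22.6 CPM for ccnb1 (12.2 to 13.4) and 10.99 CPM for mad2l1 (5.75 to 6.43). It was 52.8 CPM for kif11 (31.8 to 34.5), 166 CPM for mki67 (108 to 118) and 65.6 CPM for smc4 (38.7 to 42.6). It was 27.1 CPM for espl1 (16.0 to 17.5) and 6.37 CPM for spc24 (3.62 to 4.08). The remaining pair was pttg1 in DMSO, where replicate 1 had 3.18 CPM and the others 2.40 to 2.46 CPM. The members share a library, so the 9 values are not separate observations, and the labels record nothing that sets this library apart.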

How the results depend on the processing

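No member changed sign with a call under any alternative run. At 1 µM against DMSO 12 members fell, and 22 did in DESeq2, 32 with only the 8 libraries compared, 2 with the share of reads assigned to no gene as a covariate (where the median log2 change was -0.52, against -0.50 without it, all 41 negative), and 6 to 29 when 1 library was left out. At 10 µM against DMSO 36 fell, and 17 to 38 when 1 library was left out. At 10 µM against 0.1 µM 35 fell, with 16 in the fit of only 8 libraries, 0 with the covariate, 21 without both 0.1 µM replicate 2 and 1 µM replicate 1 (a pair chosen after seeing the data), and 19 to 36 without 1 library. At 1 µM against 0.1 µM the count of 0 became 12 in DESeq2, 1 with no filter on low counts and 0 to 11 without 1 library. At 10 µM against 1 µM the count of 0 became 1 without that pair and 0 to 1 without 1 library. At 0.1 µM against DMSO it stayed at 0 in every fit. The test for any difference called 36, and 25 to 37 without 1 library. For these counts the cause was not tested. The rates over all tested genes given above come from the main fit. Whether a changed count concerned the mitosis genes or all genes alike is therefore not shown by these counts. Fits that leave libraries out also rest on fewer libraries. Other size factors, the 1 CPM filter and the non-robust fit moved no count by over 1.5 times. The largest such move was at 1 µM against DMSO, where the non-robust fit called 18, among them 11 of the 12. Counting the 4 related genes as members gave 15 of 45 at 1 µM and 40 of 45 at 10 µM.

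Libraries with the same replicate number did not deviate together. The correlation of their deviations was -0.178 to 0.229 over 24 pairs, 1 pair exceeded 0.1, and 2 of 16 libraries correlated best with their own number, and the labels do not say whether a number marks a shared batch, so the libraries were not treated as pairs. With a replicate block 9 members fell at 1 µM and 34 at 10 µM against DMSO, 34 at 10 µM against 0.1 µM, and 0 in the other 3 comparisons, and the calls of cdkn1a at 1 µM (adjusted p = 0.0606) and of e2f8 at 0.1 µM (0.0672) and 10 µM (0.0642) ended. The depth limits genes such as pttg1, with 10 to 44 reads per library, whose counting error is wide.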

Other observations

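Among genes that act before mitosis or outside the cycle, those for entry into S phase fell at 10 µM, while cdk6 and ccng2 moved otherwise. They belong to the list of 15 genes above and were chosen after their values were seen. The kinase cdk2, which drives entry into S phase, had 7.60, 10.6, 8.87 and 9.99 CPM in the DMSO libraries, 10.2, 14.1, 9.49 and 7.88 CPM at 0.1 µM, 6.72, 6.28, 6.42 and 6.06 CPM at 1 µM and 5.43, 4.70, 7.66 and 6.51 CPM at 10 µM. It fell by 0.55 at 1 µM (adjusted p = 0.0333 in edgeR) and by 0.61 at 10 µM (adjusted p = 0.0127) against DMSO, and at 10 µM replicate 3 lay just inside the DMSO range. Its partners ccne1 and ccne2, the E-type cyclins, fell at 10 µM by 0.74 (adjusted p = 0.00529) and by 0.51 (adjusted p = 0.0255). The cyclin ccne2 also fell at 1 µM against DMSO. That call ended without DMSO replicate 1, 2 or 3, any 1 µM library, or 10 µM replicate 1 or 4 (adjusted p 0.0541 to 0.115). It also ended with the share of reads assigned to no gene as a covariate (-0.51 ± 0.22, adjusted p = 0.22). Without single libraries the 10 µM calls ended for cdk2 (10 µM replicate 2, adjusted p = 0.0521) and ccne2 (DMSO replicate 2 or 3, 10 µM replicate 1 or 2, adjusted p 0.0651 to 0.0902), and the 1 µM call of cdk2 ended without any 1 library of 1 µM or DMSO replicate 2, 3 or 4 (adjusted p 0.0564 to 0.101).

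The kinase cdk6, which acts earlier in G1 phase, had 9.19, 9.36, 11.3 and 11.3 CPM in the DMSO libraries, 13.2, 15.5, 14.5 and 13.2 CPM at 0.1 µM, 11.3, 13.1, 13.1 and 13.9 CPM at 1 µM and 7.23, 8.29, 9.79 and 9.73 CPM at 10 µM. Every library at 0.1 µM lay above every DMSO library. The log2 fold change of cdk6 was 0.45 ± 0.11 at 0.1 µM (adjusted p = 0.0161), 0.33 ± 0.11 at 1 µM (adjusted p = 0.0472) and -0.24 ± 0.11 at 10 µM (adjusted p = 0.147). The 0.1 µM call ended when DMSO replicate 1, DMSO replicate 2 or 0.1 µM replicate 2 was left out (adjusted p 0.0512 to 0.0639), and the 1 µM call in 8 of the 16 fits without 1 library (adjusted p 0.0504 to 0.139). Between doses, cdk6 at 10 µM fell by 0.69 against 0.1 µM (edgeR adjusted p = 0.000197) and by 0.57 against 1 µM (adjusted p = 0.00502). For these differences between doses only the main fit is given. Cyclin G2 (ccng2), linked in mammals to cells that have left the cycle, had 75.3, 71.5, 76.7 and 79.8 CPM in the DMSO libraries, 53.4, 44.5, 59.1 and 69.3 CPM at 0.1 µM, 62.1, 46.4, 54.7 and 57.6 CPM at 1 µM and 84.9, 104, 85.2 and 102 CPM at 10 µM. All libraries at 0.1 µM and 1 µM lay below all DMSO libraries, and all at 10 µM lay above them. It fell by 0.46 at 1 µM against DMSO (adjusted p = 0.0165), rose by 0.77 at 10 µM against 1 µM (adjusted p = 0.00162) and had 0.31 ± 0.11 at 10 µM against DMSO (adjusted p = 0.0689). At 10 µM against DMSO ccng2 passed as higher in DESeq2 (adjusted p = 0.0376), with only the 8 libraries compared (0.00377) and with a replicate block (0.0436). It also did in the non-robust fit (0.0482). At 0.1 µM against DMSO it did not pass in the main fit. It passed as lower there in DESeq2 (0.0113), with a replicate block (0.0325) and in the non-robust fit (0.0352). With the share of reads assigned to no gene as a covariate, ccng2 had -0.42 ± 0.17 at 1 µM against DMSO (adjusted p = 0.181) and 0.72 ± 0.19 at 10 µM against 1 µM (adjusted p = 0.176). In the same fit cdk6 had 0.38 ± 0.14 at 0.1 µM (adjusted p = 0.281) and 0.25 ± 0.15 at 1 µM (adjusted p = 0.373), and cdk2 had -0.58 ± 0.23 at 1 µM (adjusted p = 0.172), each against DMSO.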
